A study of Mus musculus with 20 samples.

Results

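The 10 genes described here encode secreted antimicrobial proteins of skin and of the white blood cells that enter it. They are the β-defensins Defb1, Defb3, Defb4, Defb6 and Defb14, the iron-withholding proteins Lcn2 and Ltf, the protease inhibitors Slpi and Wfdc12, and the peptidoglycan-binding protein Pglyrp1. They were chosen by gene symbol and all 10 were found among the 22090 genes of the deposited count table. RNA-seq covered 20 pieces of skin from female SKH-1 mice, a hairless strain that forms skin tumors under repeated ultraviolet radiation (UVR). The labels give an age of 7 months. In the paper this is the age before irradiation began, so the mice were older when tissue was taken. There were 8 pieces of normal skin (NS), 8 actinic keratoses (AK, a precancerous lesion) and 4 cutaneous squamous cell carcinomas (cSCC). The paper describes AK of different grades, but the labels do not give the grade, so the AK were kept together. All AK and cSCC came from UVR-exposed mice, whereas NS came from 4 exposed and 4 unexposed mice, and the sample labels do not tell those NS apart. The 8 AK, the 4 cSCC and 4 of the NS were taken from the same 4 mice. Which tissues share a mouse is not in the labels, so tissues were compared as unpaired, and p-values may be too small or too large. Each piece was bulk tissue, in which fewer cells of a type and less RNA per cell cannot be told apart.

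Antimicrobial proteins are a chemical barrier of the skin surface. β-defensins are short cationic peptides that disrupt microbial membranes, and some of them also attract immune cells. Lipocalin 2 binds bacterial siderophores and lactoferrin binds iron, so both keep iron from microbes. Keratinocytes make several of these proteins constitutively or after stimulation by interleukin 17, interleukin 22 and interleukin 1 family cytokines, and neutrophils carry lipocalin 2, lactoferrin and PGLYRP1 ready-made in their granules.

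On GRCm38 with GENCODE M21 gene models, the 5 β-defensin genes lie on the plus strand of chromosome 8. Defb14 (chr8:19194357-19195212), Defb4 (chr8:19198706-19201545), Defb6 (chr8:19225478-19228209) and Defb3 (chr8:19293360-19295291) form a cluster with gaps of 3.49, 23.9 and 65.2 kb between neighbours. Defb1 (chr8:21776599-21795185) lies 2481 kb beyond Defb3. The coding sequences of Defb4 and Defb6 were 78.3% identical and those of Defb3 and Defb4 75.7%. Their transcripts had at most 33 identical bases in a row, so only a read within such a run would match another of these genes exactly. Sharing of reads between these 3 genes was not tested. Lcn2 (chr2:32384633-32388252), Wfdc12 (chr2:164189231-164190608) and Slpi (chr2:164354070-164389095) are on the minus strand of chromosome 2, and Pglyrp1 (chr7:18871331-18890459) and Ltf (chr9:111019271-111042767) are on plus strands. Wfdc12 overlaps the antisense gene A730032A03Rik, and since the strand used in counting is not given in the sources used here, reads of this pair cannot be told apart.

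RefSeq promoter sequence on GRCm38.p6 was matched for 7 of the 10 genes: Lcn2, Wfdc12, Slpi, Pglyrp1, Defb6, Defb3 and Ltf. The 250 bases before the start of Defb6 (chr8:19225228-19225477, plus strand) and Defb3 (chr8:19293111-19293360, plus strand) are shown because these cluster neighbours differed in level across the tissues. They shared 192 identical positions of 265 aligned (72.5%), against at most 51.1% for any other pair of the 7, and their longest identical run was 40 bases. Capitals mark the bases that differ between them or have no partner.
Defb6: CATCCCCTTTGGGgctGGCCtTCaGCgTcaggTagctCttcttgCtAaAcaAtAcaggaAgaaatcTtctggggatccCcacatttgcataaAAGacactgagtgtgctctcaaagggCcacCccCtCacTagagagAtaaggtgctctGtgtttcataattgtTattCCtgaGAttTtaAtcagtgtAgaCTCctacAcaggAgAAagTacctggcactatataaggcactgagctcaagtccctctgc
Defb3: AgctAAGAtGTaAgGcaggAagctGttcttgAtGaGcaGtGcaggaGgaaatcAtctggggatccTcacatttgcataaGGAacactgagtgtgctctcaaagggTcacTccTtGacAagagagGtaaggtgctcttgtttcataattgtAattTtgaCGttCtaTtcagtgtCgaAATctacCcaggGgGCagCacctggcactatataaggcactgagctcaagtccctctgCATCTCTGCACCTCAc

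The same window is shown for Lcn2 (chr2:32387740-32387989, minus strand), Ltf (chr9:111019042-111019291, plus strand) and Pglyrp1 (chr7:18884440-18884689, plus strand), the 3 genes that were higher in cSCC vs. AK. The Lcn2 and Pglyrp1 windows lie inside the GENCODE gene spans, because a GENCODE transcript of each starts further upstream. Capitals mark the C/EBP motif in Lcn2 and Ltf and the NF-kappaB motif in Pglyrp1.
Lcn2: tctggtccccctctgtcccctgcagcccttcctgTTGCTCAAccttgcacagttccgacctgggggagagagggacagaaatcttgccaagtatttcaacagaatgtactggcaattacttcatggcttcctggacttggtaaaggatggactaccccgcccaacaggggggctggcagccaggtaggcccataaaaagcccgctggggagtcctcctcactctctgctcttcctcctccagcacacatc
Ltf: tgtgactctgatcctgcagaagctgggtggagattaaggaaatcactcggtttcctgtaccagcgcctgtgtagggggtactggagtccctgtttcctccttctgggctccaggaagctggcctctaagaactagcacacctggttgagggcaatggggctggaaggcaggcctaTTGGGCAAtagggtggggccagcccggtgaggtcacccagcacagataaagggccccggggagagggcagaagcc
Pglyrp1: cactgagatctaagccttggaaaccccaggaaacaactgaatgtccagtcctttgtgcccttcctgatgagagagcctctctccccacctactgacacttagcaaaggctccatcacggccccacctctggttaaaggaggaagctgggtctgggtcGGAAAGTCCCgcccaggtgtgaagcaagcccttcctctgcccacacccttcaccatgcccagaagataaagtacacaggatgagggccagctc

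Both strands of these 250 bases were searched. The C/EBP motif TTGCNNAA was found in 6 of the 7 windows (all but Pglyrp1) and in 9.57% of 32841 promoters. The NF-kappaB motif was found in Pglyrp1 and Defb6 and in 3.90% of all promoters. The letters TGANTCA (AP-1), TTCNNNGAA (STAT) and TATAAA were in none of the 7, and in 6.75%, 7.02% and 12.4% of all promoters. The matches in these windows did not overlap, apart from the NF-kappaB match of Defb6, which reads as a match on both strands. These matches describe the sequence and not binding.

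Sequencing depth and tissue content bore on which values could be compared. Total counts ranged from 775750 (cSCC 20) to 14055206 (AK 10), so that 3 counts stood for 0.225 to 3.78 CPM (counts per 1000000 counts of the library, scaled by TMM factors). All 12 keratinocyte markers had counts in every sample, with summed levels from 13700.4 to 28840.4 CPM in NS and from 16246 to 29452 CPM in AK. In cSCC they summed to 25029.9, 21270.3, 7343 and 5919 CPM in samples 18 to 21. The library labelled cSCC 20 held lung epithelium markers at a summed 36268.5 CPM (at most 61.8 CPM elsewhere) and the library labelled cSCC 21 held heart muscle markers at a summed 57841 CPM (at most 159 CPM elsewhere), so calls that rest on cSCC are also given without both. Macrophage markers summed to 243 to 992 CPM in NS, 294 to 1089 CPM in AK and 400.1 to 2180 CPM in cSCC. Of the 9 markers, 0 were called in AK vs. NS (2 with an unadjusted p, 0 by DESeq2 and 2 by limma voom). C1qa and Cd14 were higher in both cSCC comparisons, and the other 7 were not called. In cSCC vs. AK those 7 had log2 fold changes from -0.96 (Cd68) to 1.56 (C1qb). The median over the 9 was 0.15 in cSCC vs. NS and 0.10 in cSCC vs. AK, beside 0.14 and 0.17 over all genes. Cd14 alone had a mean of 616 CPM in cSCC, 41.5 CPM in AK and 31.4 CPM in NS. Without cSCC 20 and cSCC 21, 1 of 9 was higher against NS and 2 of 9 against AK. Among all genes, 4.64% were called in AK vs. NS, 11.7% were higher in cSCC vs. NS and 16% in cSCC vs. AK.

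In NS, Defb6 had the highest mean level per kb of transcript among the 10 genes, 1016 ± 898 CPM per kb (SD, n = 8), followed by Defb14 with 791 ± 384 CPM per kb. The annotated Defb14 transcript holds coding bases only, so its level per kb is overstated. Slpi (179 ± 215), Wfdc12 (166 ± 150), Defb1 (97.4 ± 72.1) and Lcn2 (36.4 ± 32.8) were intermediate in CPM per kb, and Pglyrp1, Defb3, Defb4 and Ltf were between 12.2 and 1.22. In AK the order was Defb14, Slpi, Wfdc12, Defb1 and Defb6, the last at 194 ± 111 CPM per kb. In cSCC, Slpi (440 ± 316 CPM per kb, n = 4) and Defb14 (401 ± 473) led, with Lcn2 at 85.5 ± 21.05. Neighbours in these orders mostly lay within their spread: the mean ± SD ranges overlapped in 8 of 9 neighbouring pairs in NS, 7 of 9 in AK and 9 of 9 in cSCC. The plot of every sample shows these levels side by side.

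**Figure D1:**
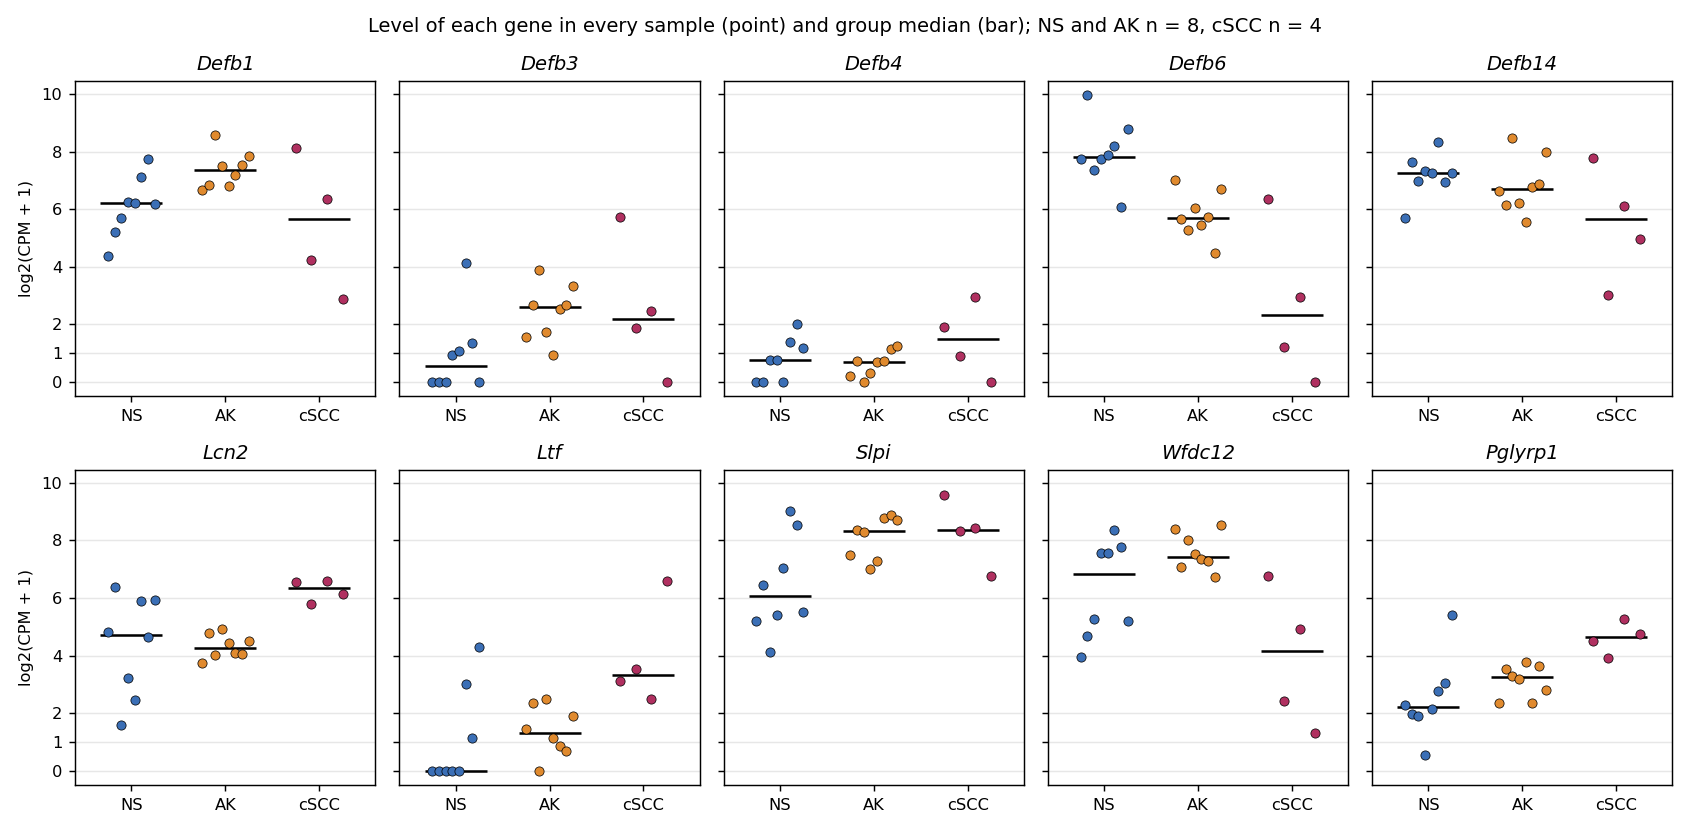
Level of each of the 10 genes as log2(CPM + 1) in every NS (n = 8), AK (n = 8) and cSCC (n = 4) sample, 1 point per sample, with the group median as a bar. Defb6 has a median of 227 CPM in NS and 50.5 CPM in AK, and the 4 cSCC points of Lcn2 and of Pglyrp1 all lie above the AK points.

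In AK vs. NS, the defensin Defb6 was downregulated and no gene of the 10 was upregulated. Of the 7 genes with enough counts to test, 1 was lower and 0 were higher, by edgeR's quasi-likelihood test. A gene was called when its Benjamini-Hochberg adjusted p was under 0.05 and its fold change passed 1.5 upwards or 0.67 downwards. Over all 11677 genes tested 4.64% were called, 2.26% higher and 2.38% lower (264 and 278 genes, which became 176 and 481 with library size alone in place of TMM factors and 190 and 391 with upper quartile factors). The unadjusted p was under 0.05 for 2 of the 7 genes, Defb6 and Defb1, and DESeq2 called 1 higher and limma voom 2. Over all 11677 genes, an unadjusted p with the same fold change limits gave 708 higher and 1090 lower. The median log2 fold change was -0.10 over the 7 genes and -0.04 over all genes. No gene of the 7 had CPM ranges that did not overlap between AK and NS, which 0.522% of all genes had. Defb3, Defb4 and Ltf had too few counts to be tested.

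In cSCC vs. NS, Defb6 was again the gene of the set that was downregulated, and 0 of the 8 tested were higher. Over all 12097 genes 19.3% were called, 11.7% higher and 7.65% lower (1414 and 926 genes, or 625 and 1332 with library size alone). The unadjusted p was under 0.05 for 2 of the 8, Defb6 and Ltf. DESeq2 called 0 higher and limma voom 1. Over all 12097 genes, an unadjusted p with the same fold change limits gave 2440 higher and 1612 lower. The median log2 fold change was 0.74 over the 8 genes and 0.14 over all genes. None of the 8 had ranges that did not overlap, which 8.43% of all genes had.

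In cSCC vs. AK, Lcn2, Pglyrp1 and Ltf were upregulated and Wfdc12 was downregulated, 3 higher and 1 lower of 9 tested. Ltf had enough counts to be tested only in the comparisons with cSCC, the group where it was high. Its call therefore depended on cSCC for entering the test as well as for its level. Over all 12032 genes 24.4% were called, 16% higher and 8.34% lower (1931 and 1004 genes, or 1021 and 1356 with library size alone). The median log2 fold change was 0.42 over the 9 genes and 0.17 over all genes. Lcn2 and Pglyrp1 (2 of 9) had ranges that did not overlap, which 10.2% of all genes had. Library size alone moved the median of all genes from 0.14 to -0.17 in cSCC vs. NS and from 0.17 to -0.09 in cSCC vs. AK. Without cSCC 20 and cSCC 21, the libraries with lung and heart markers, 1 of these 4 calls remained, that of Lcn2. Calls over all genes also fell, to 843 higher and 741 lower of 12567. The parts of group size and of lung and heart content in this were not tested. The 3 comparisons share their samples in pairs, so their values are given side by side for each gene and are not independent.

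**Figure D2:**
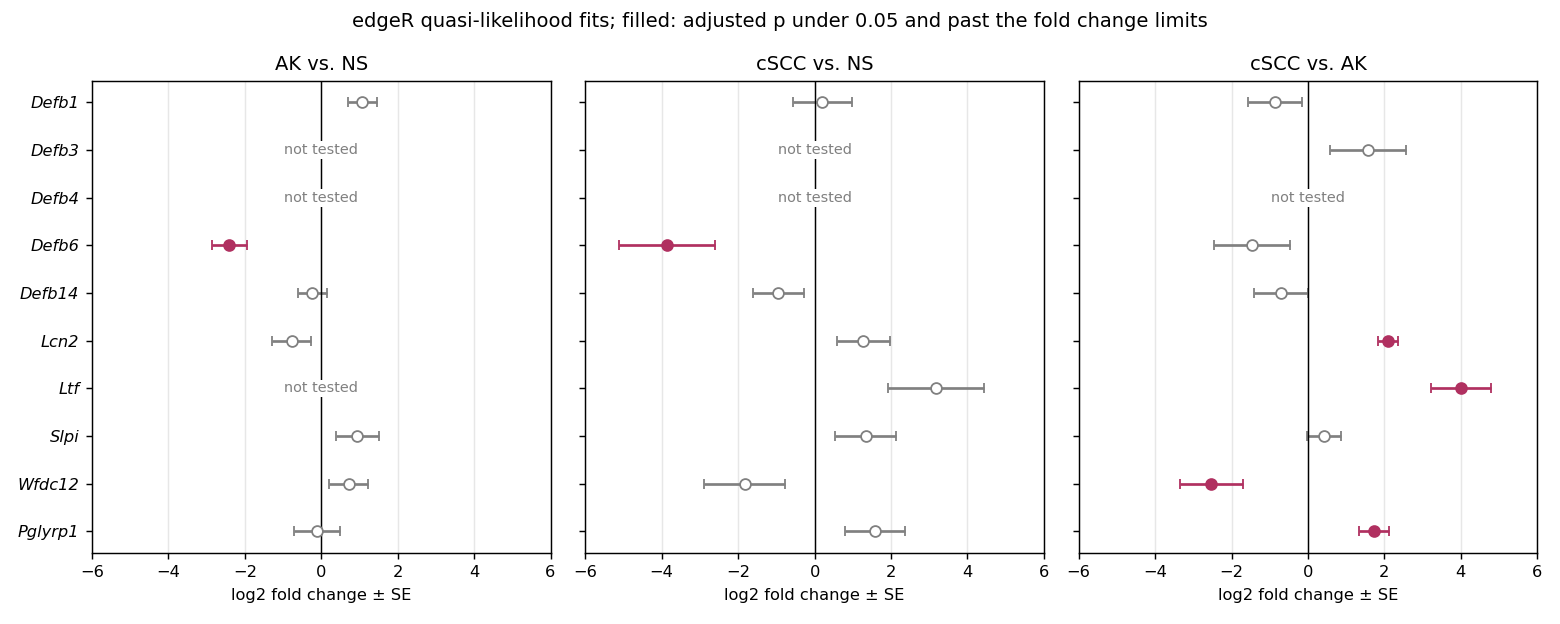
Log2 fold change of each gene in cSCC vs. AK, cSCC vs. NS and AK vs. NS from edgeR's quasi-likelihood fit, with bars of 1 SE and filled points for called genes. Defb6 is called in AK vs. NS at -2.40 and in cSCC vs. NS at -3.86, and Lcn2, Ltf, Pglyrp1 and Wfdc12 in cSCC vs. AK at 2.09, 4.00, 1.72 and -2.53.

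Defb6 was the β-defensin gene that was called when all samples were used. Its level in NS had a lowest value of 66.1 CPM (NS 8), a median of 227 CPM and a highest value of 996 CPM (NS 2). In AK the lowest value was 21.6 CPM, the median 50.5 CPM and the highest 129 CPM. In AK, 6 of 8 samples lay below the lowest NS sample and all 8 below the NS median, although the ranges overlapped because of NS 8. In cSCC it was 81.96, 1.32, 6.83 and 0 CPM in samples 18 to 21, the last being 0 counts where 3 counts would be 0.496 CPM. In AK vs. NS the log2 fold change was -2.40 ± 0.45 (SE, adjusted p = 0.0151). With each of the 16 samples left out in turn the call held, from -2.63 to -1.90 (adjusted p at most 0.0352), but it was lost with all 20 samples in 1 fit (-2.39, adjusted p = 0.133).

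For cSCC vs. NS the Defb6 log2 fold change was -3.86 ± 1.25 (adjusted p = 0.0430). This call was lost in 9 of 12 fits that left out 1 sample. Those were NS 1 (-3.93), NS 2 (-3.37), NS 4 (-3.96), NS 5 (-3.93), NS 6 (-3.92), NS 7 (-3.88), NS 9 (-3.79), cSCC 19 (-3.46) and cSCC 20 (-3.59), with adjusted p from 0.0554 to 0.0896. Without cSCC 20 and cSCC 21 it was -2.99 (adjusted p = 0.118). cSCC 18 stood apart from the other cSCC, and without it the value was -7.57 (adjusted p = 0.00187) in cSCC vs. NS. In cSCC vs. AK it moved from -1.46 ± 0.99 (adjusted p = 0.297) to -5.29 (adjusted p = 0.00218) without cSCC 18.

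Keratinocyte marker levels are given beside Defb6. Of the 12 keratinocyte markers, Lor, a cornified envelope protein gene, was called lower in AK vs. NS (log2 fold change -1.71, adjusted p = 0.0170), and 0 were higher, beside 2.38% lower over all genes. Against NS, 4 of 12 were lower in cSCC (Lor, Krt1, Krt10 and Dsg1a), beside 7.65% over all genes, and Sfn was higher. The other 7 were not called, with log2 fold changes from -1.63 (Dsc1) to 0.39 (Krt14). Without cSCC 20 and cSCC 21, 3 of 12 were lower and 1 higher in that comparison. The part of these shifts in the Defb6 result was not tested.

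Defb1 is a β-defensin made constitutively by many epithelia. Its level was 19.9 to 213 CPM in NS (median 72.7), 100.1 to 383 CPM in AK (median 163) and 276, 18.02, 81.9 and 6.45 CPM in cSCC 18 to 21. All 8 AK lay above the NS median, and 2 AK lay above the highest NS sample. The log2 fold change in AK vs. NS was 1.08 ± 0.39 (adjusted p = 0.0995), short of the threshold. Without NS 8, the NS sample with the highest Defb1 and the lowest Defb6, it was 1.41 and was called (adjusted p = 0.0245), as it was by DESeq2 (1.09, adjusted p = 0.0422) and limma voom (1.27, adjusted p = 0.0244). The value was 0.20 ± 0.77 in cSCC vs. NS (adjusted p = 0.884) and -0.87 ± 0.70 in cSCC vs. AK (adjusted p = 0.386). Without cSCC 18 these were -1.28 (adjusted p = 0.242) and -2.38 (adjusted p = 0.0191), so the sample with the highest Defb1 among cSCC decided whether cSCC vs. AK was called. Without cSCC 20 and cSCC 21 the values were 0.81 and -0.26, with neither called.

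Defb14, the mouse counterpart of human β-defensin 3, had no call with all samples. It was 51.0 to 324 CPM in NS (median 153), 46.4 to 354 CPM in AK (median 104) and 222, 7.03, 68.3 and 30.1 CPM in cSCC 18 to 21. The groups overlapped throughout, and 2 of 4 cSCC lay below the lowest AK and the lowest NS. The log2 fold change was -0.23 ± 0.38 in AK vs. NS, and it was -0.95 ± 0.66 in cSCC vs. NS and -0.70 ± 0.71 against AK (adjusted p = 0.747, 0.334 and 0.491). Without cSCC 18, cSCC vs. NS was called at -2.19 (adjusted p = 0.0250), and without cSCC 20 and cSCC 21 it was -0.49 (adjusted p = 0.725).

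Defb3, an inducible β-defensin, was near the detection limit in NS, with 0 counts in 4 of 8 samples and a highest value of 16.4 CPM in NS 7. All 8 AK had Defb3 counts, from 0.905 to 13.9 CPM (median 5.09). In cSCC it was 52.8, 2.64, 4.55 and 0 CPM in samples 18 to 21. It passed the filter in cSCC vs. AK only, with a log2 fold change of 1.57 ± 0.99 (adjusted p = 0.259), which turned to -1.36 (adjusted p = 0.365) without cSCC 18. With no filter, AK vs. NS gave 0.89 ± 0.91 (adjusted p = 0.579). Defb4, the mouse counterpart of the inducible human β-defensin 2, was the lowest of the family, from 0 to 3.04 CPM in NS, 0 to 1.37 CPM in AK and 0 to 6.83 CPM in cSCC. No filter setting gave a Defb4 call: without a filter the log2 fold changes were -0.58 ± 0.83, 1.36 ± 1.25 and 1.88 ± 1.07 (adjusted p = 0.714, 0.474 and 0.229). Differences of this gene were not detectable at this depth.

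On average, Defb6 made up a smaller part of the β-defensin counts in AK and cSCC than in NS. It took 52.8 ± 20.9% of the counts of the 5 genes in NS (SD, n = 8), 18.3 ± 10.6% in AK (n = 8) and 5.34 ± 5.42% in cSCC (n = 4), and these shares depend on gene length as well as level. In NS the share was lowest in NS 8, 16.3% (95% Wilson interval 14.4 to 18.3%), and highest in NS 2, 80.9% (79.7 to 82.1%). In AK the highest share was 39.2% (37.8 to 40.7%, AK 10), and it overlapped with NS 7 and NS 8. cSCC 21 had 0% (upper bound 1.71%). These intervals cover counting error only, and the shares were compared without a test. The summed level of the 5 genes was 578 ± 310 CPM in NS, 390 ± 199 CPM in AK and 218 ± 286 CPM in cSCC, with 636 CPM in cSCC 18 and 29.9, 168 and 36.6 CPM in the other cSCC.

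**Figure D3:**
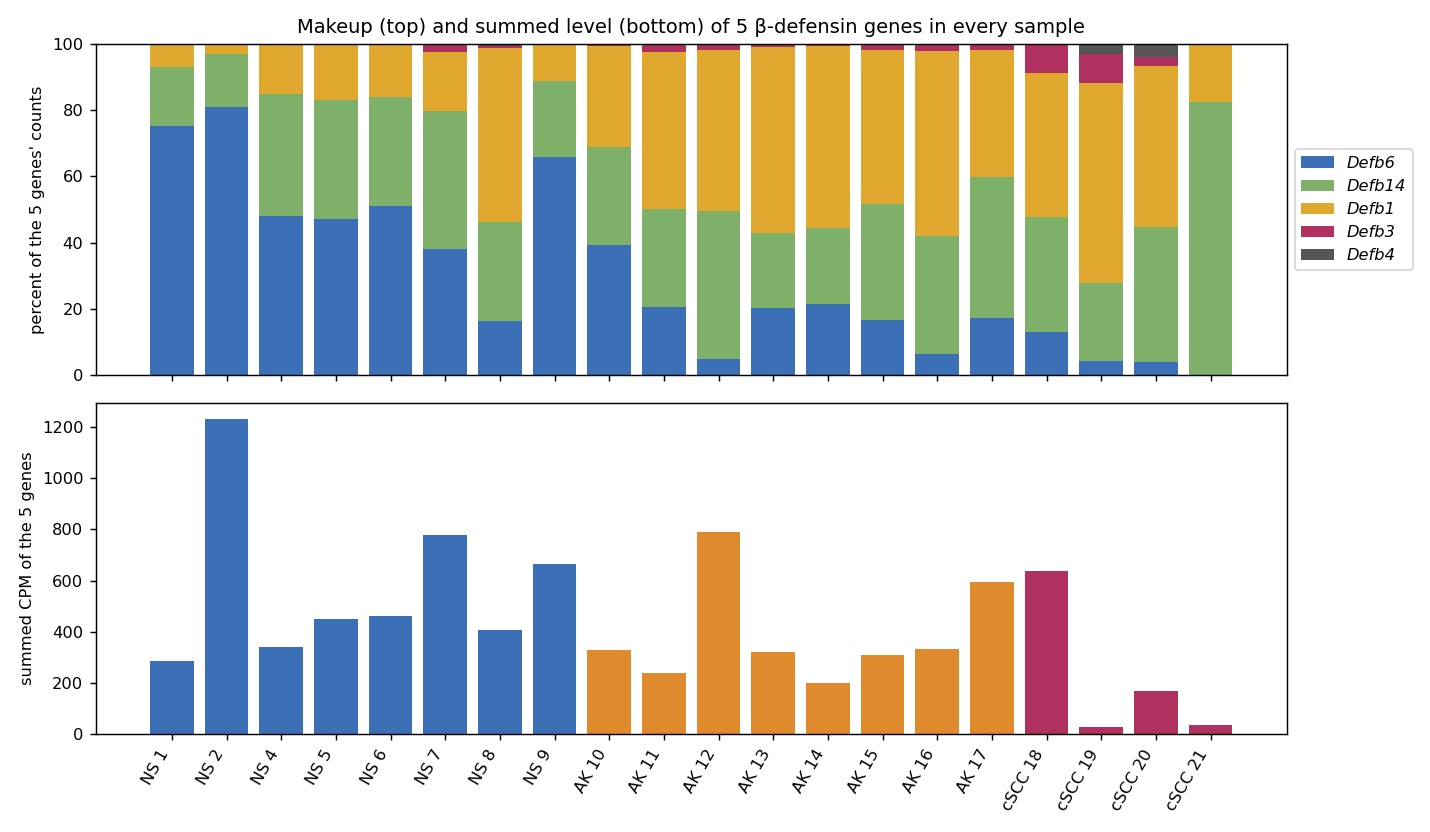
Top: percent of the counts of 5 β-defensin genes taken by each gene in every sample. Bottom: their summed CPM, with NS in blue, AK in orange and cSCC in red. Defb6 (bottom segment) takes at most 39.2% in AK, and the summed level is highest in NS 2 at 1231 CPM.

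Lcn2, which encodes the siderophore-binding lipocalin 2, was the gene of the set whose call in cSCC vs. AK held under every alternative tried. It was 12.3 to 29.0 CPM in AK (median 18.4) and 92.4, 54.9, 95.6 and 70.0 CPM in cSCC 18 to 21. All 4 cSCC lay above all 8 AK, and the AK samples lay within a narrow range. NS ranged widely, from 2.04 CPM (NS 4) through a median of 25.5 CPM to 82.6 CPM (NS 2), so that 2 of 4 cSCC lay above the highest NS. The log2 fold change in cSCC vs. AK was 2.09 ± 0.27 (adjusted p = 0.00116). Over 22 alternatives it was 1.81 to 2.23 with adjusted p at most 0.0144, and without cSCC 20 and cSCC 21 it was 1.95 (adjusted p = 0.00291). It was 1.28 ± 0.69 in cSCC vs. NS (adjusted p = 0.208) and -0.78 ± 0.51 in AK vs. NS (adjusted p = 0.36), and neither was called under any alternative, including the fit without cSCC 20 and cSCC 21 (1.15 in cSCC vs. NS, adjusted p = 0.416).

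Ltf, which encodes the iron-binding protein lactoferrin, had 0 counts in 5 of 8 NS and reached 18.5 CPM in NS 9. In AK it ranged from 0 (AK 12, where 3 counts would be 3.78 CPM) to 4.68 CPM with a median of 1.46 CPM. In cSCC it was 7.64, 10.5, 4.55 and 95.9 CPM in samples 18 to 21. The value of cSCC 20 was 4 counts, where 3 counts would be 3.41 CPM. Of the cSCC, 3 of 4 lay above the highest AK, and cSCC 21 was far above the rest. For cSCC vs. AK the log2 fold change was 4.00 ± 0.78 (adjusted p = 0.00392). It fell short without cSCC 21 (1.84, adjusted p = 0.0856) and without cSCC 20 and cSCC 21 (2.15, adjusted p = 0.0814). The value in cSCC vs. NS was 3.18 ± 1.26 (adjusted p = 0.0886), and without NS 9 it was called at 4.53 (adjusted p = 0.0272).

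Pglyrp1, which encodes a peptidoglycan-binding protein of neutrophil granules, was 4.12 to 12.7 CPM in AK (median 8.51) and 21.5, 14.1, 37.5 and 26.1 CPM in cSCC 18 to 21. All 4 cSCC lay above all 8 AK. In NS the median was 3.63 CPM, 7 of 8 samples lay at or below 7.31 CPM, and NS 9 had 41.5 CPM, above every cSCC. Between cSCC and AK the log2 fold change was 1.72 ± 0.39 (adjusted p = 0.00812). It was called with each of the 12 samples left out in turn, but not without both cSCC 20 and cSCC 21 (1.19, adjusted p = 0.121) and not with all 20 samples in 1 fit (1.59, adjusted p = 0.0835). For cSCC vs. NS it was 1.59 ± 0.79 (adjusted p = 0.173), and without NS 9 it was 2.76 and was called (adjusted p = 0.00670). In AK vs. NS it was -0.10 ± 0.60 (adjusted p = 0.935), with a sign that changed without NS 9 (1.08, adjusted p = 0.122), AK 10 (0.02) or AK 15 (0.01).

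Because neutrophils carry Lcn2, Ltf and Pglyrp1, the levels of 12 neutrophil markers are given beside them. The markers summed to 29.2 to 843 CPM in NS, 77.5 to 373 CPM in AK and 299 to 720 CPM in cSCC. NS 9, the NS sample with the highest Ltf and Pglyrp1, also had the highest neutrophil marker sum (843 CPM). cSCC 21, the sample with the highest Ltf, had the highest sum among cSCC (720 CPM). Of 9 tested markers, 2 were called higher in cSCC vs. AK (Cxcr2 and Csf3r, receptors for neutrophil chemokines and for G-CSF), 2 of 9 in cSCC vs. NS and 0 of 8 in AK vs. NS, where an unadjusted p, DESeq2 and limma voom also gave 0. Over all genes 16% were higher in cSCC vs. AK and 11.7% in cSCC vs. NS. Csf3r had enough counts to be tested only in the comparisons with cSCC, the group where it was high. The other 7 tested markers did not pass in cSCC vs. AK, with log2 fold changes from 0.13 (Ly6g) to 2.08 (Ngp). Without cSCC 20 and cSCC 21, 2 of 9 were higher in cSCC vs. AK and 1 of 10 in cSCC vs. NS. Elane, which encodes neutrophil elastase and is transcribed in neutrophil precursors, was at 0 in all 4 cSCC and in 17 of 20 samples. Lcn2 was also high in NS 2 (82.6 CPM), whose neutrophil marker sum was 88.1 CPM. The part of neutrophil content in the 3 results was not tested.

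**Figure D4:**
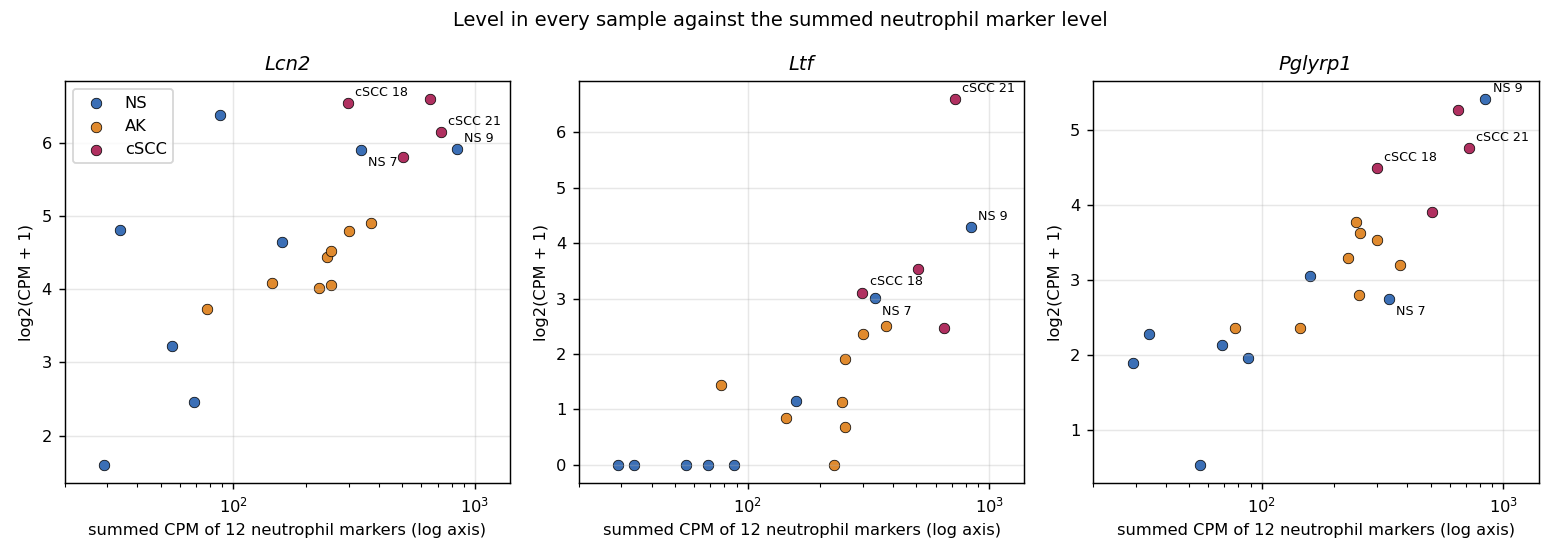
Level of Lcn2, Ltf and Pglyrp1 as log2(CPM + 1) in every sample against the summed CPM of 12 neutrophil markers on a log axis, with NS in blue, AK in orange and cSCC in red. NS 9 lies at the right end of the marker axis (843 CPM) and has the highest Pglyrp1 of all samples (41.5 CPM), and cSCC 21 has the highest Ltf (95.9 CPM).

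Slpi, a secreted inhibitor of neutrophil elastase, was the highest gene of the set per kb in cSCC but was not called in any comparison. It was 16.3 to 524 CPM in NS (median 65.7), 126 to 473 CPM in AK (median 318) and 768, 323, 341 and 108 CPM in cSCC 18 to 21. All 8 AK and all 4 cSCC lay above the NS median, while NS 7 (524 CPM) lay above every AK. The log2 fold change was 0.95 ± 0.57 in AK vs. NS, and for cSCC it was 1.33 ± 0.79 against NS and 0.42 ± 0.45 against AK (adjusted p = 0.313, 0.250 and 0.517). limma voom with sample weights called Slpi in AK vs. NS (1.91, adjusted p = 0.0307), and without cSCC 18 the value in cSCC vs. AK was -0.20 (adjusted p = 0.763). Slpi was 1.81 against NS (adjusted p = 0.216) and 0.90 against AK (adjusted p = 0.203) without cSCC 20 and cSCC 21.

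Wfdc12, a whey acidic protein family member with a protease inhibitor fold, was downregulated in cSCC vs. AK. It was 105 to 375 CPM in AK (median 172) and 108, 4.39, 29.6 and 1.49 CPM in cSCC 18 to 21. Only cSCC 18 reached into the AK range. In NS it ranged from 14.6 to 328 CPM (median 112), with 4 of 8 NS below the lowest AK. The log2 fold change was -2.53 ± 0.82 (adjusted p = 0.0367) in cSCC vs. AK, 0.72 ± 0.51 (adjusted p = 0.405) in AK vs. NS and -1.83 ± 1.06 (adjusted p = 0.239) in cSCC vs. NS. The call in cSCC vs. AK was lost in 6 of 12 fits that left out 1 sample, namely AK 10 (-2.42), AK 12 (-2.54), AK 13 (-2.55), AK 17 (-2.37), cSCC 19 (-2.15) and cSCC 20 (-2.48), with adjusted p from 0.0523 to 0.0739. It was also lost without both cSCC 20 and cSCC 21 (-1.90, adjusted p = 0.127). Without cSCC 18 it was -4.38 (adjusted p = 0.00212), and cSCC vs. NS was then called at -3.63 (adjusted p = 0.0443). In the same comparison with AK, 6 of 12 keratinocyte markers were lower (Lor, Krt1, Krt10, Dsg1a, Perp and Dsp), beside 8.34% over all genes, and Sfn was higher, with a median of -1.11 over the 12. The other 5 were not called: Dsc1 (-2.06), Krt15 (-0.26), Ivl (-0.23), Krt14 (0.04) and Krt5 (0.63). Of the 12, 2 were lower and 2 higher without cSCC 20 and cSCC 21. The part of these marker shifts in the Wfdc12 result was not tested.

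Among the 4 cSCC, cSCC 18 had the highest level of Defb1, Defb3, Defb6, Defb14, Slpi and Wfdc12. Its TMM factor was 0.509, against 0.852 to 1.22 in the other samples, and its keratinocyte marker sum was the highest of the cSCC at 25029.9 CPM. The part of its scaling and its keratinocyte content in these values was not tested. Without it, 3 of 8 genes were lower and 0 higher in cSCC vs. NS (Defb6, Defb14 and Wfdc12), and 3 of 9 were lower and 3 higher in cSCC vs. AK, the lower ones being Defb1, Defb6 and Wfdc12. Calls over all genes also rose without it, to 1890 higher and 1291 lower of 12636 in cSCC vs. NS and to 2330 higher and 1664 lower of 12734 in cSCC vs. AK. The plot of fits with 1 sample left out shows how far each call moved.

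**Figure D5:**
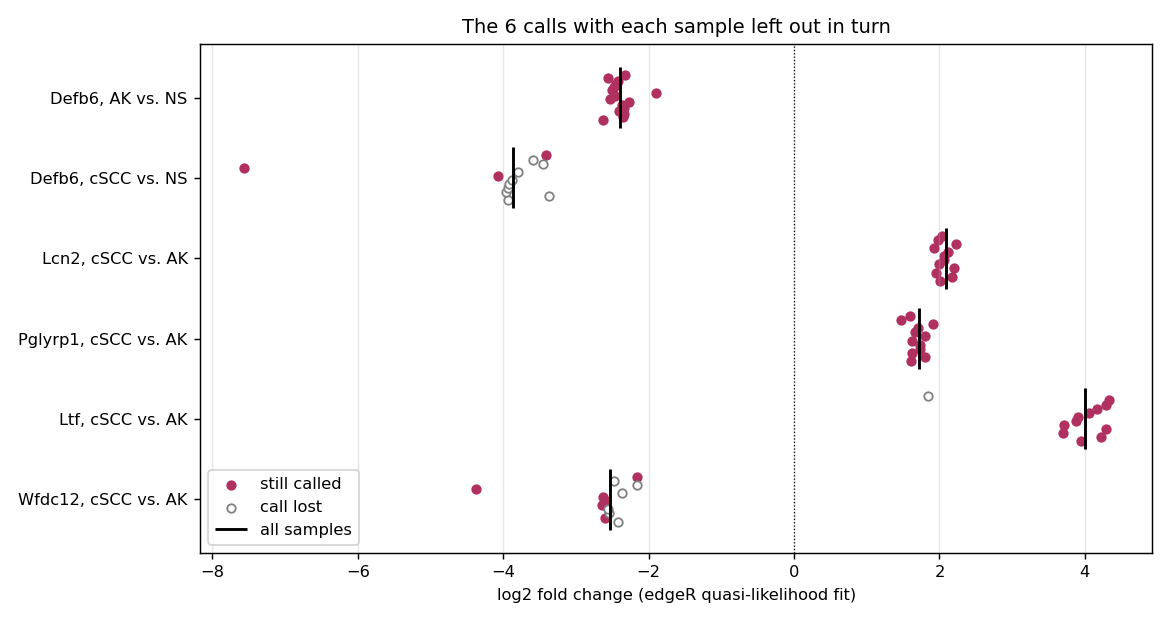
Log2 fold change of the 6 calls with each compared sample left out in turn (points) and with all samples (bar). Filled points are fits in which the gene was still called. Lcn2 stays between 1.93 and 2.23, whereas Ltf drops to 1.84 without cSCC 21 and Defb6 in cSCC vs. NS reaches -7.57 without cSCC 18.

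The levels of the 10 genes across the 20 samples fell into patterns, given here as Spearman's rho over samples that share groups and library scaling. Defb3 and Slpi followed each other closely (rho = 0.88), as did Defb1 and Defb3 (0.78) and Pglyrp1 and Ltf (0.76). Defb6 and Pglyrp1 had the most negative value (-0.60). The cluster neighbours Defb6 and Defb3, with the similar promoters shown above, had rho = -0.31. Defb3 had 0 counts in 4 of 8 NS and 1 of 4 cSCC, and Ltf in 5 of 8 NS. The ranks of these genes, here and below, therefore rest partly on ties and low counts.

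Outside the set, the genes most like each member by rho over the 20 samples were taken from 12838 genes. Lrg1, an acute phase glycoprotein gene, was most like Lcn2 (0.89), followed by St3gal4 and Zfyve21. Slfn1 (0.93) and Fam46c (0.88) were among those most like Pglyrp1. Ifitm1 (0.85), the neutrophil granule gene Ngp (0.84) and Slc28a2 were most like Ltf. Tmprss11g and the cornified envelope gene Sprr2i were in the top 3 of both Defb3 (0.91 and 0.91) and Slpi (0.86 and 0.88), followed by Gm5483 for Defb3 and Trim27 for Slpi. Gsdmc4 (0.95) and Gsdmc3 were most like Wfdc12, and Tprgl (0.92), Abhd12b and Atp6v1c2 most like Defb6. Serpinb6c (0.97), Ebna1bp2 and 1810037I17Rik were most like Defb1, and the ribosomal protein genes Rpl7 (0.93), Rpl38 and Rpl36al most like Defb14.

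Of 26 other antimicrobial genes, 1 of 15 tested was lower in AK vs. NS and 0 were higher (1 with an unadjusted p, 0 by DESeq2 and 1 by limma voom). It was Wfdc21, a whey acidic protein family member like Wfdc12, which fell by 2.55 ± 0.45 on the log2 scale (adjusted p = 0.0151), a call held in all 25 alternatives. For cSCC vs. NS, 2 of 16 were higher and 1 lower: S100a7a, a psoriasin gene (3.36 ± 1.03), Adm, which encodes adrenomedullin (3.26 ± 0.53), and Wfdc21 (-2.66 ± 0.60). Against AK, 4 of 16 were higher in cSCC, namely S100a7a (1.65 ± 0.40), Adm (2.49 ± 0.49) and the calprotectin genes S100a8 (1.97 ± 0.53) and S100a9 (2.25 ± 0.49), and Wfdc5 was lower (-1.76 ± 0.53). The median log2 fold changes of the list were 0.17, 0.39 and 0.18 in the 3 comparisons, beside -0.04, 0.14 and 0.17 over all genes. Among all genes, 2.26% were higher and 2.38% lower in AK vs. NS. In cSCC vs. NS 11.7% of all genes were higher and 7.65% lower, and in cSCC vs. AK 16% and 8.34%. S100a8 was not called without cSCC 18 (0.82, adjusted p = 0.169), with limma voom (1.61, adjusted p = 0.0521) or with all 20 samples in 1 fit (1.88, adjusted p = 0.0892). Wfdc21 in cSCC vs. NS was not called with limma voom (-2.40, adjusted p = 0.0657), nor S100a7a there with DESeq2 (3.41, adjusted p = 0.0677) or in cSCC vs. AK with all 20 samples in 1 fit (1.51, adjusted p = 0.183). Wfdc5 was not called without cSCC 19 (-1.499), cSCC 20 (-1.54) or cSCC 21 (-1.53). S100a7a in cSCC vs. NS was lost without NS 1 (3.18), NS 4 (3.18), NS 5 (3.22), NS 6 (3.31), cSCC 19 (3.33), cSCC 20 (3.36) or cSCC 21 (3.33). Without both cSCC 20 and cSCC 21, S100a7a was called in neither comparison (3.32 and 1.602), nor was Wfdc5 in cSCC vs. AK (-1.11).

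Of 29 genes of the interleukin 17, interleukin 22, interleukin 1 and NF-kappaB pathways upstream of these proteins, 28 were in the table and 0 of 20 tested were called in AK vs. NS. In AK vs. NS the unadjusted p was under 0.05 for 2 of the 20, Il1b and Il23a, and DESeq2 called 1 and limma voom 0. Among 21 tested in cSCC vs. NS, 3 were higher and 2 lower. The higher ones were the interleukin 1 gene Il1b (5.24 ± 0.55), the oncostatin M gene Osm (4.00 ± 0.86) and the adaptor Myd88 (0.80 ± 0.22). The lower ones were the interleukin 36 beta gene, listed as Il1f8 (-2.50 ± 0.65), and Il20ra, a receptor subunit gene (-1.86 ± 0.60). For cSCC vs. AK, 4 of 22 were higher, Il1b (4.03 ± 0.59), Osm (3.03 ± 0.86), Tnf (2.70 ± 0.78) and Myd88 (0.82 ± 0.21), and Il1f8 was lower (-2.54 ± 0.60). The median log2 fold changes of the list were 0.04, 0.12 and 0.18 in the 3 comparisons, beside -0.04, 0.14 and 0.17 over all genes. Among all genes, 4.64% were called in AK vs. NS. In cSCC vs. NS 11.7% of all genes were higher and 7.65% lower, and in cSCC vs. AK 16% and 8.34%.

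The Il1b calls held under all 22 alternatives in both comparisons, and the Osm call in cSCC vs. NS under all 16 available for it. Each of the other calls of this pathway list was lost under at least 1 alternative. Osm and Tnf had enough counts to be tested only in the comparisons with cSCC, the group where they were highest. In cSCC vs. AK, Osm and Tnf were lost without cSCC 19 (2.49 and 1.69) and Myd88 without cSCC 21 (0.66), and in cSCC vs. NS Myd88 was lost without cSCC 19 (0.75) or cSCC 21 (0.74). Il20ra was lost without NS 1, 4, 5, 6, 7 or 9 or without cSCC 19, 20 or 21 (-1.89 to -1.45). With library size alone in place of TMM, Myd88 was 0.52 and 0.59 in cSCC vs. NS and cSCC vs. AK and was not called. Without both cSCC 20 and cSCC 21, Myd88 (0.78 in both), Il1f8 (-1.85 against NS and -1.90 against AK) and Il20ra (-1.12) were not called.

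Of 12 genes for receptors and partners of the encoded proteins, 0 of 4 tested were called in AK vs. NS. In that comparison the unadjusted p was under 0.05 for 1 of the 4, Mmp9, and DESeq2 and limma voom called 0. Of 5 tested in cSCC vs. NS, 2 were higher, Trem1, a receptor that binds PGLYRP1 (5.75 ± 0.89), and Mmp9, the gelatinase that forms a complex with lipocalin 2 (2.79 ± 0.49). In cSCC vs. AK 1 of 5 was higher, Trem1 (4.25 ± 0.90). These 3 calls held under all 22 alternatives. Among all genes, 4.64% were called in AK vs. NS, 11.7% were higher in cSCC vs. NS and 16% in cSCC vs. AK. Trem1 was 26.6 to 117 CPM in cSCC, at most 17.98 CPM in AK and at most 5.48 CPM in NS, so its cSCC samples lay above all others. Ranges did not overlap for 8.43% of all genes in cSCC vs. NS and for 10.2% in cSCC vs. AK. Trem1 had enough counts to be tested only in the comparisons with cSCC, the group where it was high. Slc22a17, the lipocalin 2 receptor gene, was at 0 counts in 5 of 8 NS and 6 of 8 AK and was not tested.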

How the data were processed

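Bulk RNA-seq of 8 NS, 8 AK and 4 cSCC samples was analysed from the table of raw read counts per gene that the authors deposited. The study's methods name GRCm38 and StringTie, whereas the submitters' processing notes list Trimmomatic 0.36, HISAT2 2.0.5, featureCounts 1.5.2 and the builds mm9 and hg19, so the build and counter behind the counts could not be settled. Strand in counting is not given in the sources used here. The deposited counts are whole numbers whose totals differ between samples.

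From the counts, genes passing filterByExpr were scaled by TMM and tested with edgeR 4.0.16 (glmQLFit, glmQLFTest; R 4.3.3), with each comparison fitted on its own groups. Adjusted p-values cover all genes tested. Alternatives were DESeq2 1.42.0, limma 3.58.1 voom with sample weights, other scaling and filters, 1 fit of all 20 samples, and leaving samples out. In the paper each exposed mouse gave more than 1 AK, so the AK samples are not all separate animals. The labels do not say which samples share a mouse, so the tests took every sample as independent. The p-values therefore rest on the spread between these samples and not between mice. No 2 samples of a group agreed within sampling noise (62 pairs, lowest chi-square per degree of freedom 11.3).

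On simulated counts with a log2 fold change of 2, the edgeR step recovered 92.8% of 180 changed genes for AK vs. NS among 11668 genes, 53.0% of 183 for cSCC vs. NS among 12463 and 51.9% of 187 for cSCC vs. AK among 12355. Intervals cover counting error only. The members and gene lists were chosen with earlier results of these data known. Every member was named, with, from the lists, the genes called, and for each member with a mean of at least 5 CPM the 3 genes of highest Spearman's rho. Of the latter, 2 genes are not reported here. Il36a, Il36b, Il36g and Adgre1 were matched to the older names Il1f6, Il1f8, Il1f9 and Emr1. Camp is in the neutrophil and antimicrobial lists, and Elane in the neutrophil and receptor lists. Cebpd was not analysed here.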

Additional observations from a re-analysis of the deposited data

Results flagged for a closer look

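In 8 of 30 groups of values (10 genes in 3 tissues), 1 sample lay farther from the nearest other sample of its group than Dixon's limit allows. That limit assumes normally distributed values, which CPM need not be, so no chance rate is given. Each flagged sample was the highest of its group. In NS, Defb6 was 996 CPM in NS 2 (next 438 CPM) and Defb3 was 16.4 CPM in NS 7 (next 1.52 CPM). NS 9 stood apart for Pglyrp1 (41.5 CPM, next 7.31 CPM) and for Ltf (18.5 CPM, next 7.02 CPM). In AK, Defb1 was 383 CPM in AK 12 (next 228 CPM). In cSCC, sample 18 stood apart for Defb3 (52.8 CPM, next 4.55 CPM) and Defb6 (81.96 CPM, next 6.83 CPM), and sample 21 for Ltf (95.9 CPM, next 10.5 CPM).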

How the results depend on the processing

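Of the alternatives for single genes of the set, 501 kept direction and call, 22 lost the call, 14 gained one and 10 changed sign. The number of genes called in AK vs. NS was 1 and became 2 without adjustment of p, 2 with DESeq2, 3 with limma voom and 0 with all 20 samples in 1 fit, and ranged from 1 to 2 with 1 sample left out. Over all genes the calls went from 264 higher and 278 lower to 708 and 1090 without adjustment, 433 and 616 with DESeq2, 521 and 522 with limma voom, and 5 and 4 of 12847 with all 20 samples, so the 0 is not particular to the set. In cSCC vs. NS the number was 1 and became 2 without adjustment, with limma voom and with all 20 samples, and ranged from 0 to 3 with samples left out. Over all genes the calls in cSCC vs. NS were 1414 higher and 926 lower. They became 2440 and 1612 without adjustment, 768 and 540 with limma voom, and 1783 and 1488 with all 20 samples. In cSCC vs. AK the number for the set was 4, ranged from 1 (without cSCC 20 and cSCC 21) to 6 (without cSCC 18) with samples left out, and was 3 or 4 otherwise. Calls over all genes there were 843 higher and 741 lower without cSCC 20 and cSCC 21, and 2330 and 1664 without cSCC 18. Signs changed in AK vs. NS with limma voom for Lcn2 (0.16) and Pglyrp1 (0.67). With samples left out, Pglyrp1 in AK vs. NS ranged from -0.29 to 1.08, Defb1 in cSCC vs. NS from -1.28 to 0.81, Defb3 in cSCC vs. AK from -1.36 to 2.49 and Slpi in cSCC vs. AK from -0.20 to 0.90. Defb1 in cSCC vs. NS was -0.41 with limma voom and -0.45 with library size alone. The cause of these changes was not tested. DESeq2 gave no adjusted p for Ltf in either cSCC comparison. Alternatives for the list genes were chosen after seeing the data. Defb3, Defb4 and Ltf had counts too low to be tested in at least 1 comparison. No paired analysis was possible because the labels do not say which tissues share a mouse.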
